A study of Mus musculus with 39 samples.

Results

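The genes described here are the nuclear genes for the subunits of the mitochondrial respiratory chain and of ATP synthase, together with cytochrome c. They were taken by symbol: every row named for an Ndufa, Ndufb, Ndufc, Ndufs, Ndufv or Ndufab subunit, Sdha to Sdhd, every Uqcr gene, 14 named Cox genes and every Atp5 gene, plus Cycs, leaving out pseudogene rows. The rule found 81 of 55011 gene symbols. Some respiratory genes, such as Cyc1 of complex III, fall outside it. By name, 37 belonged to complex I, 4 to complex II, 8 to complex III, 14 to complex IV and 17 to ATP synthase (complex V), and 1 was cytochrome c. Ndufa4 was counted with complex I for its name, although its protein is now placed in complex IV.

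PolyA RNA of 39 mouse libraries was counted. Vγ6 T cells, a γδ T cell lineage known for IL-17A, were sorted from muscle 3 days after injury and from the colonic lamina propria of wild-type mice (n = 3 each). Whole tibialis anterior muscle was taken on days 1, 3, 7 and 14 from Tcrd-DTR mice (DTR) and wild-type mice (WT), with n = 3 per group except 2 DTR libraries on day 7. Both genotypes had been given diphtheria toxin intraperitoneally, which removes cells that carry the toxin receptor, here the γδ T cells. Muscle on day 7 also came from wild-type mice that had received recombinant IL-17A, called rIL-17A here, or PBS, by both intraperitoneal and intramuscular injection (n = 2 each). Muscle satellite cells, the stem cells of muscle, came from DTR and WT mice treated with the toxin and were sorted on day 1 (n = 3 each). All muscle had been injured with cardiotoxin, a venom peptide that destroys muscle fibres. Each library held 1000 sorted cells or 2 ng of muscle RNA. Ages of the mice were not used here.

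The respiratory chain passes electrons from NADH (complex I) and succinate (complex II) through complex III and cytochrome c to oxygen at complex IV, and ATP synthase uses the proton gradient so built to make ATP. A few core subunits are encoded in mitochondrial DNA and the rest in the nucleus, and several subunits of complex IV exist as one isoform typical of heart and skeletal muscle and another found widely (Cox6a2 and Cox6a1, Cox7a1 and Cox7a2, Cox8b and Cox8a). When injured muscle regenerates, necrotic fibres are cleared by infiltrating leukocytes and new fibres, rich in mitochondria, form from satellite cells.

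Total counts per library ran from 2372139 to 10974862, and the labels call the libraries independent biological replicates. Trdc, the constant part of the γδ receptor's δ chain, had 0 to 4 counts in DTR and 1 to 8 in WT libraries of the time course, with the genotypes overlapping on day 1, sharing a value on day 14 and apart on days 3 and 7. It had 0 to 3 counts in DTR and 6 to 14 in WT satellite cells, and 3618 to 7070 in Vγ6 cells. Mature fibre markers (12 genes) held 6.73 to 22.4% of counts in DTR muscle and 2.77 to 23.2% in WT muscle, with the lowest library of either genotype on day 3. In sorted cells they held at most 0.0118%, except for 0.425% in DTR satellite cell replicate 1. Replicate 2 of DTR muscle on day 1 and replicate 3 of WT muscle on day 7 stood apart by detecting 35394 and 34392 genes. In whole muscle, fewer cells of a type and less RNA per cell cannot be told apart.

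The letters at the starts of these genes are described first. RefSeq windows of GRCm38.p6, reaching from 250 bases before to 50 bases after the start, were held for 67 of the 81 genes and for 27025 genes in all. The palindromic core of the site of nuclear respiratory factor 1 (its letters are the first capitals in Cox6a1 as printed here, and like the others it was searched on both strands) was in 7.46% of the members' windows and in 0.977% of all windows. A looser form of it, which contains the core and leaves the 2 middle letters free, was in 26.9% and 6.43%. The site of ETS factors such as GABP (CCGGAAG) was in 23.9% and 9.12%, and the YY1 site AAGATGGCG in 8.96% and 1.49%. The site of estrogen-related receptors (TCAAGGTCA) was in 2.99% and 0.407%. The E-box of myogenic factors CAGCTG was in 8.96% and 16.1%, and the TATA box TATAAA in 10.4% and 14.2%. The CCAAT box, named for its letters, was in 43.3% and 37.9%. Members' windows held the factor sites at a higher share than all windows, and the E-box and TATA letters at a lower share. Some shares rest on few of the 67 windows: 5 for the core, 6 for the YY1 site and 2 for the estrogen-related receptor site. These shares describe letters in a window, not bound sites. The windows of all genes were not matched to the members' windows for GC content. A link between the letters and the members' changes was not tested.

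The windows of 4 isoform genes are shown because these genes took opposite courses in the muscle from day 1 to day 3. Cox6a1 (chr5:115348909-115349208, minus strand) and Cox8a (chr19:7217567-7217866, minus strand) are the widely found isoforms, and Cox8b (chr7:140900397-140900696, minus strand) and Cox7a1 (chr7:30183921-30184220, plus strand) those of muscle. Each is written 5′ to 3′ along its gene. Capitals mark the nuclear respiratory factor 1 core and the ETS site in Cox6a1, the ETS sites in Cox8a, and the E-box and TATA letters in Cox8b. The ETS sites lie on the opposite strand, so that they read CTTCCGG here. Cox7a1 held none of the sites marked in the others.
Cox6a1: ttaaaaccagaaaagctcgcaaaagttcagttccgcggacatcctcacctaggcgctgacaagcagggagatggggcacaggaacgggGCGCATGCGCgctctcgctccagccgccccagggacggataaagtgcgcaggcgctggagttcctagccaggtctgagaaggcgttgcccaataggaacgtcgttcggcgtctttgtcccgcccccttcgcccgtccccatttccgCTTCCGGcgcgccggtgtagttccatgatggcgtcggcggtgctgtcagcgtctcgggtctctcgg
Cox8a: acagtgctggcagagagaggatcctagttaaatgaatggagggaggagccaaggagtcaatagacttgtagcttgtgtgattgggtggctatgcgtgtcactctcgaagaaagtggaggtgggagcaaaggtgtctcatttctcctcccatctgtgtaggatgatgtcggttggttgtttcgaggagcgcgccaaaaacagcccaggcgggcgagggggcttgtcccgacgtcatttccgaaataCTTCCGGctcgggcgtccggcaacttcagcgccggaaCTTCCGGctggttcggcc
Cox8b: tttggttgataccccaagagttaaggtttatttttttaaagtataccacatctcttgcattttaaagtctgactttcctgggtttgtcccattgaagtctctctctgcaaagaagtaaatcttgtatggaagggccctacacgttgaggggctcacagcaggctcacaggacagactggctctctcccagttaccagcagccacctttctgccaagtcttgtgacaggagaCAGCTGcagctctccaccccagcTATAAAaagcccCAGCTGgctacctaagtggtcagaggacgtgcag
Cox7a1: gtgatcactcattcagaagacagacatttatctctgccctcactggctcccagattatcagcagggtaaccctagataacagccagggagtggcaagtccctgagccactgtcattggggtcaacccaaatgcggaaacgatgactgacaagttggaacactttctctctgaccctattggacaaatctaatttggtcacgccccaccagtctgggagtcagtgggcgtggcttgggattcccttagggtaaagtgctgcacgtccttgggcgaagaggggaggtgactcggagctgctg

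The 81 genes together took the smallest share of counts in Vγ6 cells and the largest in muscle on day 7. They held 1.26, 1.25 and 1.19% of all counts in Vγ6 cells of muscle and 1.10, 1.11 and 1.15% in those of colon. Satellite cells held 1.58, 1.54 and 1.49% in DTR and 1.65, 1.65 and 1.79% in WT libraries. In DTR muscle the shares were 3.62, 2.93 and 3.36% on day 1, 2.39, 2.46 and 2.78% on day 3, 7.01 and 6.39% on day 7 and 4.49, 4.75 and 4.85% on day 14. In WT muscle they were 3.38, 2.95 and 2.74% on day 1, 2.23, 2.44 and 2.99% on day 3, 6.09, 6.61 and 5.95% on day 7 and 4.57, 5.10 and 4.85% on day 14. Muscle on day 7 held 4.87 and 4.74% with rIL-17A and 6.65 and 6.64% with PBS. Each muscle library of day 7, other than those given rIL-17A, lay above every library of the other days, and every sorted library lay below every muscle library.

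**Figure D1:**
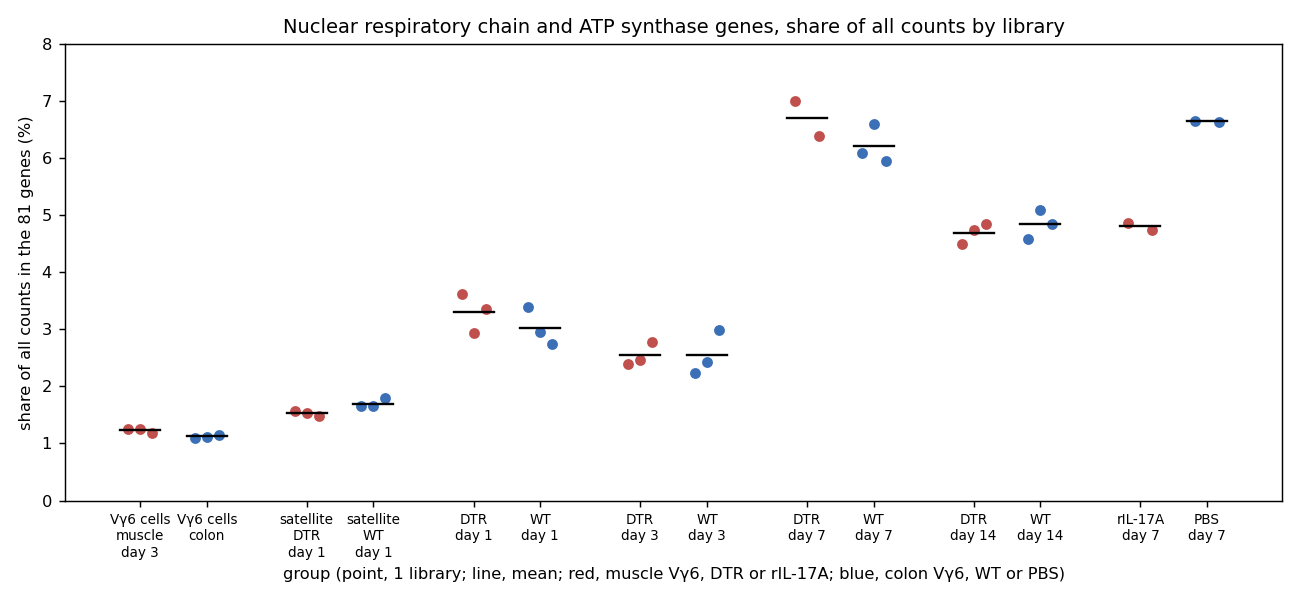
Share of all counts held by the 81 genes (y axis, percent) in each of 39 libraries (points), by group (x axis), with the group mean as a line. DTR muscle on day 7 (6.39 and 7.01%) and WT muscle on day 7 (5.95 to 6.61%) stood above days 1, 3 and 14, and rIL-17A muscle (4.74 and 4.87%) stood below PBS muscle (6.64 and 6.65%).

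CPM are a gene's counts scaled to 1000000 of the library's total. To set levels between genes, they were divided by the length of the longest transcript, for the 78 members with a length. The ranking depends on the length used, which was 6310 bases for Atp5l and 765 for Cox4i1. Which transcript of a gene was expressed was not tested. In WT muscle on day 7 the highest were Cox4i1, the main form of subunit 4 of complex IV (3393 ± 529 CPM per kb, SD, n = 3), Cox6b1, which lies between the monomers of the complex IV dimer (2123 ± 241 CPM per kb), and Atp5b, the catalytic β subunit of ATP synthase (1879 ± 44.4 CPM per kb). The median gene had 516 CPM per kb, and the lowest were Atp5l at 4.07 and Cox4i2, the lung form of subunit 4, at 4.92. The same Cox4i1 and Atp5b, together with Cox8a, were the 3 highest in Vγ6 cells of muscle (789.5 ± 39.2, 446 ± 7.38 and 469 ± 14.2 CPM per kb) and in WT satellite cells (1017 ± 157, 1224 ± 60.7 and 730.4 ± 126 CPM per kb). The muscle isoforms were at or near 0 in both cell types: Cox6a2 averaged 0 and 1.27 CPM per kb there, against 1278 in WT muscle on day 7.

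Change over time in WT muscle is described by the steps between neighbouring days, which share the libraries of the middle days, and by a test over all 4 days. All 81 genes passed the filter on low counts in the time course. In the test over days 79 changed, where 53.7% of all genes tested did, and mean CPM was highest on day 7 for 71 genes, on day 14 for 6 and on day 3 for 4. It was lowest on day 3 for 53 and on day 1 for 24. Log2 changes are edgeR estimates with TMM scaling, given with their standard error, the later day over the earlier. Scaling matters for them: with column totals alone the median of all genes tested was 0.40 from day 1 to 3 and −0.74 from day 3 to 7, against 0.00 and 0.04 with TMM.

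**Figure D2:**
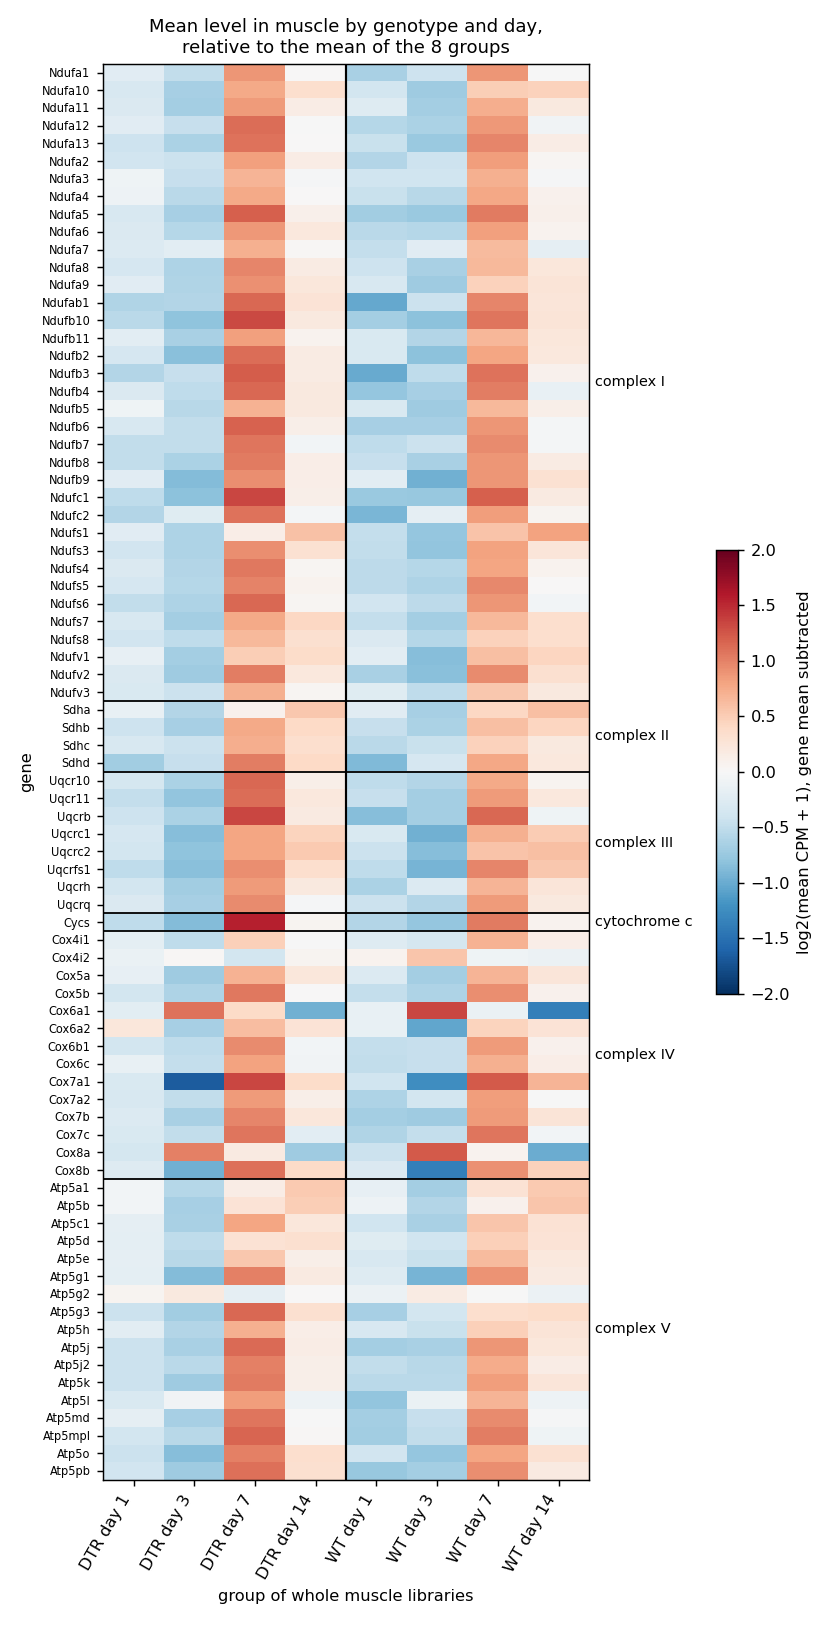
Mean level of 80 of the 81 genes (rows, grouped by complex) in the DTR and WT muscle groups on days 1, 3, 7 and 14 (columns), as log2(mean CPM + 1) with the mean over the 8 groups subtracted. Day 7 is the warmest column in both genotypes for most rows, while Cox6a1 and Cox8a are warmest on day 3.

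From day 1 to day 3, 29 of the 81 genes fell in WT muscle and 2 rose, while 50 did not pass the test. Of all genes tested 9.36% fell and 9.58% rose, and the members' median log2 change was −0.51 against 0.00 over all genes tested. In complex I, 15 of 37 fell, led by Ndufb9, an accessory subunit of the membrane arm (log2 change −1.13 ± 0.23, adjusted p = 3.69e-04). Sdha, the flavoprotein of complex II, and the core protein Uqcrc1 of complex III fell too (log2 change −0.82 ± 0.24 and −1.04 ± 0.26). In ATP synthase 6 of 17 fell, among them Atp5g1, one of 3 genes for the c subunit of the rotor (log2 change −1.07 ± 0.23, adjusted p = 9.18e-04), and the α and β subunits of the catalytic head, Atp5a1 and Atp5b (−0.91 ± 0.23 and −0.89 ± 0.24). The count depended on the settings: 12 fell with column totals alone and 47 with an offset for transcript length and GC content. Leaving out 1 library left 9 (without WT day 1 replicate 1), 13 and 12 (without WT day 3 replicate 1 or 2), and the calls of Atp5a1, Atp5b and Sdha were lost without the first of these libraries. Sdha kept its call in only 3 of the 6 fits that leave out 1 library.

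The 2 that rose from day 1 to 3 were the widely found isoforms Cox6a1 and Cox8a. Cox6a1 (chromosome 5, 115345642 to 115348981, minus strand, GENCODE M21) had 290.1, 236 and 226 CPM in WT libraries of day 3 and 80.1, 101 and 88.2 CPM in those of day 1 (log2 change 1.09 ± 0.20, adjusted p = 1.20e-04). Cox8a had 321, 267 and 286 CPM on day 3 and 92.5, 96.9 and 85.0 CPM on day 1 (log2 change 1.28 ± 0.19, adjusted p = 6.47e-06). For both genes the lowest library of day 3 was more than any library of day 1. The muscle isoform Cox8b did the opposite, with 67.2, 99.8 and 164 CPM on day 3 and 277, 220.5 and 204 CPM on day 1 (log2 change −1.47 ± 0.28, adjusted p = 2.19e-04), and so did Cox6a2 (log2 change −1.28 ± 0.27, adjusted p = 7.13e-04) and Cox7a1 (log2 change −1.24 ± 0.30, adjusted p = 0.00408). Macrophage markers moved the same way as Cox6a1 and Cox8a, with 6 of 8 higher on day 3 and a summed level of 8343 to 13860.0 CPM on day 3 and 1115 to 2465 CPM on day 1, and 9 of 12 fibre markers fell. The part of either in these changes was not tested.

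From day 3 to day 7 the genes rose almost as a whole. In WT muscle 77 of 81 genes rose and 1 fell, where 17.9% of all genes tested rose and 19% fell, and the median log2 change was 2.16 against 0.04 over all genes tested (1.37 against −0.74 with column totals alone). All 37 genes of complex I rose, by 1.65 to 2.77. The smallest p there was that of Ndufc1, a small membrane subunit, which had 474, 489 and 428 CPM on day 7 and 99.5, 126 and 131 CPM on day 3 (log2 change 2.77 ± 0.22, adjusted p = 9.74e-12). Ndufa5 and Ndufv2, of the peripheral arm, rose by 2.58 ± 0.23 and 2.59 ± 0.23. Every library of day 7 was above every library of day 3 in CPM for 77 of the 81 genes, and for 9.06% of all genes tested.

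All members of complexes II and III rose as well, with 4 of 4 and 8 of 8 genes. Sdhd, a membrane anchor of complex II, had 549.5, 509 and 412 CPM on day 7 and 212, 234 and 238 CPM on day 3 (log2 change 1.92 ± 0.20, adjusted p = 1.67e-09), and Sdha rose by 1.88 ± 0.24. In complex III the quinone-site subunit Uqcrb had 647, 732 and 647 CPM on day 7 and 161, 191 and 216 CPM on day 3 (log2 change 2.63 ± 0.23, adjusted p = 2.77e-11), and the iron-sulfur protein Uqcrfs1 rose by 2.702 ± 0.25. Cycs, the electron carrier between complexes III and IV, had 325, 295 and 230.4 CPM on day 7 and 75.4, 79.9 and 84.4 CPM on day 3 (log2 change 2.64 ± 0.23, adjusted p = 3.73e-11). None of these genes overlapped between the days.

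Complex IV split by isoform. Of its 14 genes 11 rose, led by Cox7a1, with 565, 597 and 446 CPM on day 7 and 52.8, 82.5 and 154 CPM on day 3 (log2 change 3.27 ± 0.32, adjusted p = 5.61e-09), and Cox8b (log2 change 3.07 ± 0.29, adjusted p = 7.04e-10). Cox6a2 and the widely found Cox7a2 rose by 2.27 ± 0.28 and 2.00 ± 0.21, and the subunits Cox7c, Cox7b and Cox5b by 2.35, 2.34 and 2.34. Cox6a1 was the member that fell, with 89.5, 107 and 74.2 CPM on day 7 (log2 change −0.67 ± 0.20, adjusted p = 0.00737). Cox8a had a log2 change of −0.36 ± 0.19 (adjusted p = 0.14) and Cox4i2 of 0.02 ± 0.50, neither past the threshold. In ATP synthase 16 of 17 rose, Atp5g1 by 2.63 ± 0.25 and the subunit b gene Atp5pb by 2.42 ± 0.22. The exception was Atp5g2, another c subunit gene, at 20.6, 34.2 and 35.1 CPM on day 7 and 33.8, 23.5 and 45.3 CPM on day 3 (log2 change 0.57 ± 0.26, adjusted p = 0.0777).

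Genes around the complexes moved with them at this step. Of 18 genes of the citric acid cycle and pyruvate dehydrogenase 18 rose (median log2 change 1.84), of 43 tested assembly factors 35 rose and none fell (median 1.14), and of 11 tested subunits encoded in mitochondrial DNA 11 rose (median 2.95). Of 15 nuclear regulators of mitochondrial genes 5 rose: Ppargc1a and Ppargc1b, coactivators of mitochondrial genes (0.95 ± 0.27 and 1.08 ± 0.30), the estrogen-related receptors Esrra (1.38 ± 0.29) and Esrrg (1.58 ± 0.40), and Tfam, which packages mitochondrial DNA (1.29 ± 0.22). The related coactivator Pprc1 and Nrf1 itself fell (−2.42 ± 0.24 and −1.17 ± 0.23). With column totals alone none of the 5 that rose passed the test. Fibre markers moved the same way as the members, with 11 of 12 higher and 18.5 to 20.4% of counts on day 7 against 2.77 to 9.12% on day 3, while 8 of 8 macrophage markers fell. The members' summed level divided by that of the fibre markers was 0.299, 0.336 and 0.321 on day 7 and 0.805, 0.420 and 0.328 on day 3, and the days overlapped.

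**Figure D3:**
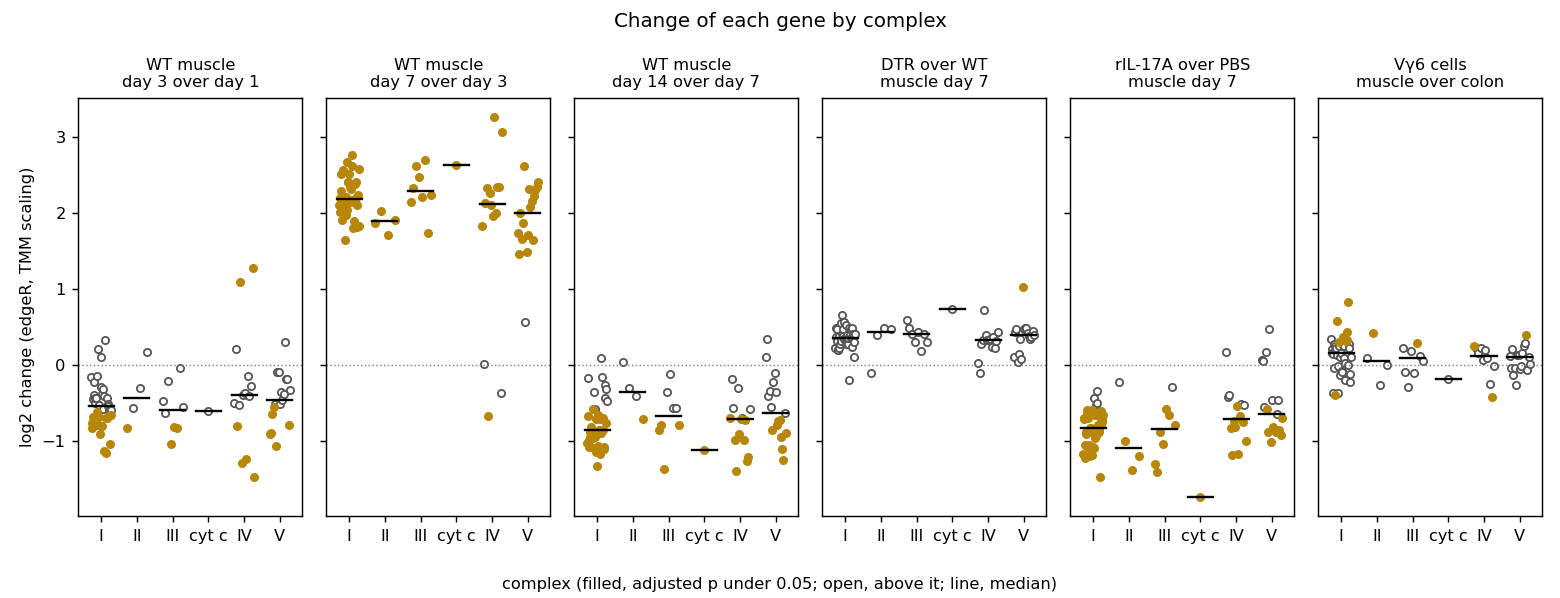
Log2 change of each member (points; filled where the adjusted p was under 0.05) in 6 comparisons, by complex (x axis), with the median of each complex as a line. From day 3 to day 7 the points of complexes I to III sit between 1.65 and 2.77, and the outlying points in complex IV are isoform genes.

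From day 7 to day 14 in WT muscle 51 of 81 members fell and 0 rose, where 13.2% of all genes tested fell and 4.14% rose, with a median log2 change of −0.73. The fall took in 28 of 37 genes of complex I, for example the membrane subunit Ndufb4 (log2 change −1.32 ± 0.23, adjusted p = 8.88e-05), but 1 of 4 in complex II (Sdhd, −0.71 ± 0.20), 4 of 8 in complex III, 9 of 14 in complex IV and 8 of 17 in ATP synthase. Uqcrb had 266, 319.6 and 276 CPM on day 14 and 647, 732 and 647 CPM on day 7 (log2 change −1.36 ± 0.22, adjusted p = 2.73e-05). Cox6a1 fell further, to 38.0, 38.7 and 37.0 CPM on day 14 (log2 change −1.39 ± 0.21, adjusted p = 1.27e-05), as did Cox8a (−1.21 ± 0.20), whereas Cox6a2, Cox7a1 and Cox8b had −0.30 ± 0.27, −0.69 ± 0.30 and −0.57 ± 0.27, none past the threshold. Cycs fell by 1.11 ± 0.22 on the log2 scale. With an offset for length and GC content Uqcrb, Sdhd and Cycs no longer passed.

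Each of 4 genes lay above 0 at this step without passing the test: Atp5b (0.35 ± 0.24), Atp5a1 (0.11 ± 0.23), Ndufs1, the largest subunit of complex I (0.10 ± 0.24), and Sdha (0.05 ± 0.23). Atp5b had 4907, 5289.6 and 4819.6 CPM on day 14 and 3502, 3653 and 3646 CPM on day 7, with no overlap. Over the 78 genes with a length, the log2 change correlated with transcript length (Spearman rho 0.352, Pearson r 0.302 on log2 length, a description across genes that share libraries and so no test). Where trends over transcript length and GC content were removed from each library by an offset, 9 genes fell and 3 rose, with a median of −0.13, and all 9 were among the 51. The estimates of 28 members lay above 0 with the offset and those of 4 without it. In DTR muscle the step had a median of −1.16, with 72 lower and 0 higher (19.7% and 14.6% of all genes tested, 34.4% in either direction), or 20 lower and 1 higher with the offset. Without WT day 7 replicate 1 or 2 or WT day 14 replicate 1, the count in WT muscle was 32, 33 or 29, and Sdhd no longer passed. Of 12 fibre markers 0 were called either way, and the members' sum divided by theirs was 0.200, 0.240 and 0.209 on day 14.

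Several markers of other cell types fell over the same days in WT muscle. Macrophage markers were lower for 7 of 8, with a summed level of 160.4, 129.7 and 139.7 CPM on day 14 and 438, 701 and 678 CPM on day 7. Fibroblast markers were lower for 3 of 6, at 1821, 1493 and 1543 CPM on day 14 and 2851, 3942 and 2855 CPM on day 7, and satellite cell markers for 3 of 7, at 129, 131 and 111 CPM on day 14 and 293, 230.1 and 209 CPM on day 7. Olfactory and vomeronasal receptor genes summed to 1578, 1626 and 1844 CPM on day 14 and 267, 543 and 1383 CPM on day 7. None of these sums overlapped between the days, and their part in the members' change was not tested.

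Within a library the share of an isoform in its pair does not depend on scaling. Cox6a2 made up 89.5, 83.7 and 85.7% of Cox6a2 and Cox6a1 counts in WT muscle on day 1, 38.8, 52.9 and 67.9% on day 3, 89.9, 89.8 and 92.1% on day 7 and 95.04, 94.95 and 95.9% on day 14. Cox8b made up 75, 69.5 and 70.6% of its pair with Cox8a on day 1, 17.3, 27.2 and 36.4% on day 3, 79.4, 80.97 and 80.9% on day 7 and 86.1, 86.1 and 87.2% on day 14. Both shares were lowest on day 3 with no overlap with other days, and the 3 libraries of day 3 were far apart. Cox7a1 shifted less, with a mean of 39.3 ± 3.79% of its pair on day 1, 22.4 ± 7.80% on day 3, 42.3 ± 2.61% on day 7 and 47.6 ± 0.841% on day 14 (SD, n = 3 each). Fibre markers ranked the day 3 libraries of WT muscle as these shares did, with 2.77, 5.80 and 9.12% of counts in replicates 1, 2 and 3. In DTR muscle of day 3 the ranks differed, with markers at 6.73, 9.125 and 7.69% of counts in replicates 1, 2 and 3. Cox6a2 shares there were 65.9, 67.9 and 62.8%, and Cox8b shares 36.4, 40.8 and 34.5%. A link between markers and shares was not tested.

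**Figure D4:**
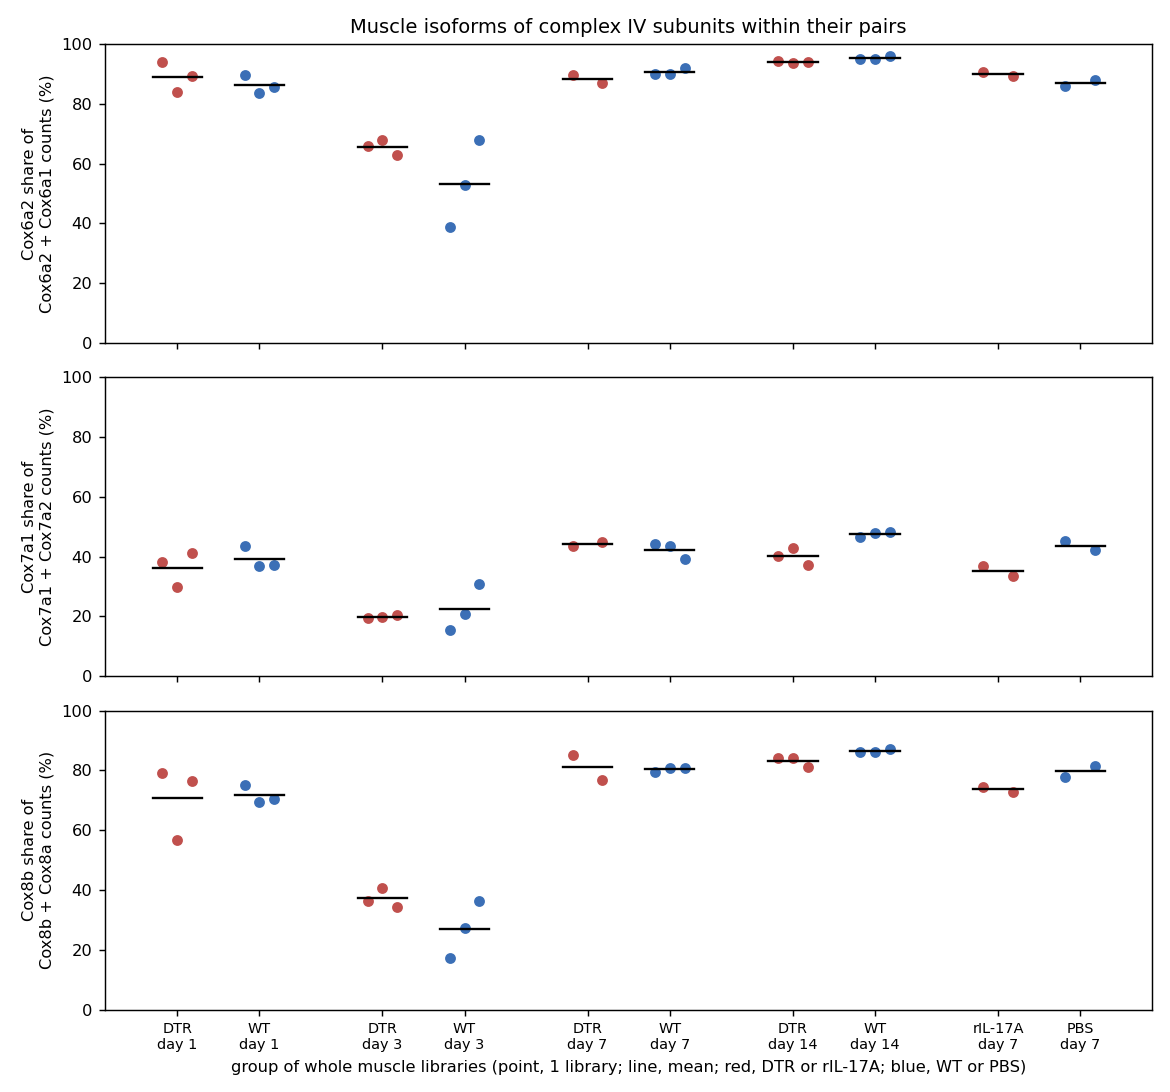
Share of the muscle isoform within its pair (y axes, percent of the pair's counts) for Cox6a2, Cox7a1 and Cox8b in whole muscle libraries (points), with group means as lines. The DTR and WT libraries of day 3 sit lowest in the panels of Cox6a2 and Cox8b, while for Cox7a1 a DTR library of day 1 (29.7%) lay below WT day 3 replicate 3 (30.9%).

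Most members moved in the same direction in DTR muscle as in WT muscle at each step. From day 1 to 3, 27 members fell and 2 rose (5.85% and 8.48% of all genes tested; median log2 change −0.56), and the 2 were again Cox6a1 (1.11 ± 0.20) and Cox8a (1.19 ± 0.19). This count was 4 without DTR day 1 replicate 1 or 3, 60 without replicate 2 of that day, 7 and 9 without DTR day 3 replicate 1 or 2, and 59 with the offset. From day 3 to 7, 77 rose and 0 fell (17.1% and 18.4% of all genes tested; median 2.55, or 1.55 against −1.20 for all genes with column totals alone), with the largest changes in Cox7a1 (4.02 ± 0.35) and Cycs (3.42 ± 0.25). Cycs had 420.4 and 392 CPM on day 7 and 67.8, 69.1 and 88.8 CPM on day 3 in DTR muscle. All 81 estimates lay above 0 at this step in DTR muscle, against 79 in WT muscle, where Cox6a1 and Cox8a lay below 0. In the test over all days 79 members changed, where 56.2% of all genes tested did. No member passed the test for an interaction of genotype with time (0.608% of all genes tested did), where 2 of 81 had an unadjusted p under 0.05, or 2.47% against 13.5% of all genes tested, and the smallest adjusted p was 0.0694, for Atp5g3. Cox6a1 had an unadjusted p of 0.00525 in that edgeR test (adjusted p = 0.162). DESeq2 called 1 member in the interaction test, as did edgeR without DTR day 1 replicate 2.

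Set against WT muscle of the same day, DTR muscle differed in 1 member at 1 day. On day 1 and on day 3 no member passed the test, and none had an unadjusted p under 0.05, nor did DESeq2 call any; of all genes tested 0% passed on either day, with 4.25% and 4.78% at an unadjusted p under 0.05. On day 1 every DTR library lay above every WT library in CPM for 24 members and below for 0 (8.71% and 1.91% of all genes tested). With TMM scaling the members' median log2 change on day 1 was 0.02, with 48 estimates above 0 and 33 below. On day 7 Atp5g3, the third c subunit gene, had 1244 and 1301 CPM in DTR libraries and 659, 841 and 679 CPM in WT libraries (log2 change 1.03 ± 0.22, adjusted p = 0.00898). Both DTR libraries lay above the 3 WT libraries. It was the only member called, where 0.641% of all genes tested were higher and 1.37% lower, and the call was lost with the replicate number as a block, with the length and GC offset, or without WT day 7 replicate 3 or either DTR library, where the DTR library that remains is taken to vary like the other groups. Without WT day 7 replicate 1 or 2, 2 members were called. Cycs (420.4 and 392 CPM in DTR and 325, 295 and 230.4 CPM in WT libraries; log2 change 0.73 ± 0.24, adjusted p = 0.0823) and Cox6a1 (log2 change 0.73 ± 0.22, adjusted p = 0.0636) did not pass.

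On day 7 the estimate was above 0 for 78 of 81 members, with a median log2 change of 0.37 against −0.02 over all genes tested, and 15 had an unadjusted p under 0.05, or 18.5% against 20.7% of all genes tested. Both DTR libraries lay above every WT library in CPM for 33 members and below for 2 (8.3% and 20.9% of all genes tested). The median was 0.13 with column totals alone (−0.25 over all genes) and 0.05 with the offset. Olfactory and vomeronasal receptor genes summed to 146 and 92.1 CPM in DTR and 267, 543 and 1383 CPM in WT libraries of day 7. Genes detected numbered 22369 and 21496 in DTR and 22417, 27437 and 34392 in WT libraries. The part of these differences in the members' shift was not tested. On day 14 no member passed (0.0767% of all genes tested did, 0.0383% higher and 0.0383% lower), none had an unadjusted p under 0.05 (5.72% of all genes tested did), DESeq2 called none, and the median was −0.05. Atp5g3 then had 651, 742 and 766 CPM in DTR and 695, 817 and 707 CPM in WT libraries, which overlapped. The isoform shares did not pass an exact permutation test of genotype within days (2-sided, 80000 arrangements, 4 pairs): the mean difference, DTR minus WT, was 2.82 percentage points for Cox6a2 (p = 0.313, adjusted p = 0.499), −2.72 for Cox7a1 (p = 0.126, adjusted p = 0.499), 1.69 for Cox8b (p = 0.525, adjusted p = 0.525) and −0.0491 for Cox4i2 (p = 0.374, adjusted p = 0.499). On day 14 Cox7a1 made up 40.4, 42.8 and 37.2% of its pair in DTR libraries and 46.7, 47.8 and 48.4% in WT libraries, without overlap.

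Muscle given rIL-17A was compared with muscle given PBS on day 7 of regeneration. Most of the members were lower in treated muscle: 62 of 81 fell and 0 rose, where 16.1% of all genes tested fell and 18.1% rose (34.1% in all), and the median log2 change was −0.79 against 0.05 over all genes tested (−0.64 against 0.20 with column totals alone). Both rIL-17A libraries lay below both PBS libraries in CPM for 72 genes, and above both for 5 (28.4% and 40.5% of all genes tested). The size of this depends on one step of the analysis. With the offset for transcript length and GC content 17 fell and 2 rose (Uqcrh, the hinge protein of complex III, and Atp5h, subunit d of ATP synthase), the median was −0.11, and 16 of the 17 were among the 62. The estimates of 29 members lay above 0 with the offset and those of 5 without it. Over the 78 members with a length, the log2 change without the offset had a Spearman rho of 0.187 with transcript length (Pearson r 0.108 on log2 length). With GC content the Spearman rho was −0.0393. These describe the members and are no test. Without rIL-17A replicate 3 the count that fell was 23. Leaving out 1 library here leaves a group with a single library, which is then taken to vary like the 2 of the other group.

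The largest fall was that of Cycs (chromosome 6, 50562563 to 50566538, minus strand), with 138 and 138 CPM in rIL-17A libraries and 429 and 404 CPM in PBS libraries (log2 change −1.74 ± 0.20, adjusted p = 9.55e-05). With the offset its log2 change was −1.63 ± 0.18 (adjusted p = 4.25e-04), so that it passed either way. The offset rested on the longest transcript of each gene, which had 3123 bases for Cycs. In complex III Uqcr11, a small accessory subunit, had 397 and 433 CPM with rIL-17A and 1008 and 969 CPM with PBS (log2 change −1.40 ± 0.20, adjusted p = 3.16e-04, or −1.23 ± 0.18 with the offset), and Uqcr10 fell by 1.303 ± 0.19 on the log2 scale. In complex II Sdhc, a membrane anchor, had 92.9 and 102 CPM with rIL-17A and 224 and 232 CPM with PBS (log2 change −1.38 ± 0.20, adjusted p = 3.98e-04, or −1.37 ± 0.19 with the offset), and Sdhd and the iron-sulfur subunit Sdhb fell as well (−1.19 ± 0.20 and −0.996 ± 0.21). For these genes the libraries of the groups did not overlap. With the offset Sdhd and Sdhb no longer passed, nor did Sdhb without rIL-17A replicate 3.

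Complex I had 33 of 37 genes lower. Ndufs6, a zinc-binding subunit of the peripheral arm, had 102 and 108 CPM with rIL-17A and 278 and 246 CPM with PBS (log2 change −1.47 ± 0.20, adjusted p = 2.66e-04, or −0.50 ± 0.18 with the offset, past no threshold). Ndufa13, also known as GRIM-19, fell by 1.22 ± 0.20 on the log2 scale and kept its call with the offset (−1.24 ± 0.18). Complex IV had 9 of 14 lower, both widely found and muscle isoforms among them: Cox6a1 (log2 change −1.18 ± 0.22, adjusted p = 0.00166), Cox7a1 (log2 change −1.17 ± 0.20, adjusted p = 0.00112), Cox8b (log2 change −0.999 ± 0.20, adjusted p = 0.00234), Cox6a2 (−0.74 ± 0.20) and Cox7a2 (−0.67 ± 0.20). With the offset the last 2 had log2 changes of 0.06 ± 0.18 and 0.17 ± 0.19, above 0 and past no threshold. ATP synthase had 9 of 17 lower, among them Atp5g3, with 592 and 634 CPM with rIL-17A and 1218 and 1016 CPM with PBS (log2 change −1.01 ± 0.20, adjusted p = 0.00228), and Atp5g1 (−0.88 ± 0.20, or −1.11 ± 0.19 with the offset). Atp5g3 no longer passed with the offset, Cox6a2 and Atp5g1 without rIL-17A replicate 3, and Cox7a2 without PBS replicate 3 or either rIL-17A library.

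The members above 0 without passing were Atp5a1 (0.07 ± 0.21), Atp5b (0.05 ± 0.21), the δ subunit gene Atp5d (0.18 ± 0.20), Atp5g2 (0.47 ± 0.29) and Cox4i1 (0.17 ± 0.21). Atp5b had 4142 and 4858 CPM with rIL-17A and 3928 and 3877 CPM with PBS, and Cox4i1 had 2772 and 2351 CPM with rIL-17A and 2073 and 2059 CPM with PBS. Within the isoform pairs Cox7a1 made up 36.9 and 33.6% with rIL-17A and 45.2 and 42.1% with PBS, Cox8b 74.5 and 72.9% with rIL-17A and 77.9 and 81.4% with PBS, and Cox6a2 90.6 and 89.4% with rIL-17A and 85.9 and 88.1% with PBS. With 2 libraries a group an exact permutation test cannot go below p = 0.333, so these shares are given without one.

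**Figure D5:**
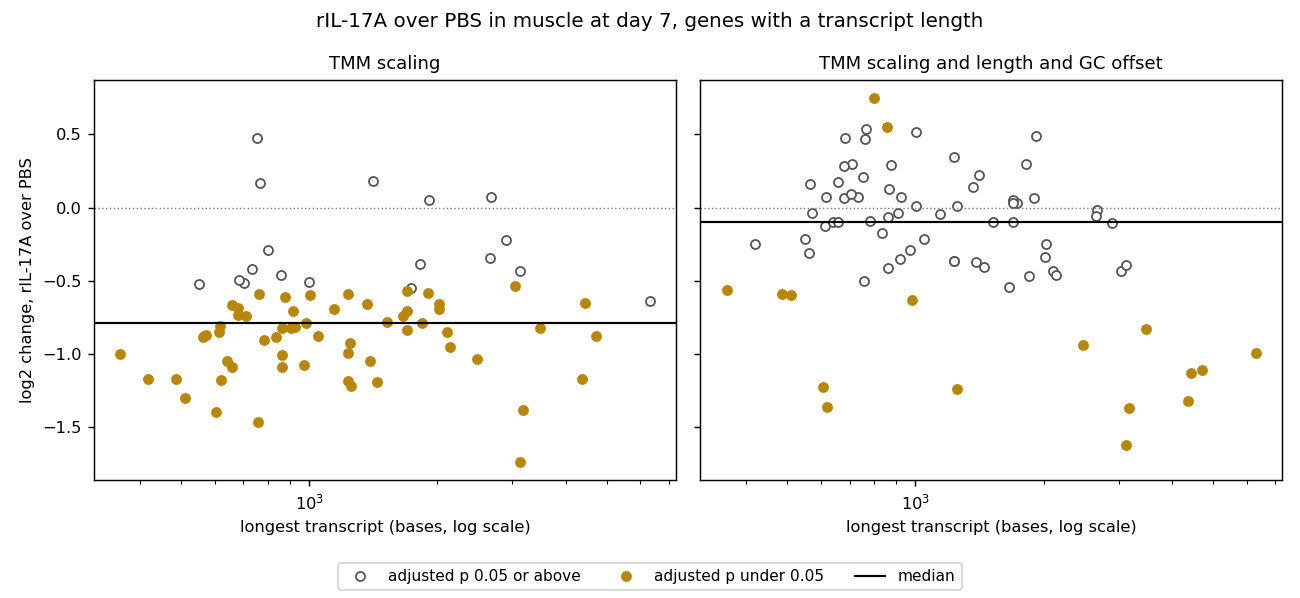
Log2 change of the 78 members with a transcript length (y axis, rIL-17A over PBS) against that length (x axis, bases, log scale), with TMM scaling alone (left) and with the length and GC offset (right); filled points had an adjusted p under 0.05 and the line is the median. Over all 81 genes the median was −0.79 without and −0.11 with the offset, and with it Cycs remained the lowest point.

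Subunits encoded in mitochondrial DNA were also lower with rIL-17A, with 9 of 12 tested lower and 1 higher (median −1.26), or 3 lower and 2 higher with the offset. They held 4.70 and 3.42% of counts with rIL-17A and 9.23 and 8.49% with PBS. Of 43 tested assembly factors 20 fell and 6 rose, or 3 and 7 with the offset, and of 18 genes of the citric acid cycle and pyruvate dehydrogenase 7 fell and 2 rose, or 1 and 3. Of 14 tested nuclear regulators none fell and 6 rose: Esrrg (2.97 ± 0.56), the lipid-sensing receptor Ppara (2.40 ± 0.69), Ppargc1b (2.01 ± 0.31), Polrmt, the RNA polymerase of mitochondria (1.73 ± 0.27), Pprc1 (1.64 ± 0.45) and the ETS factor Gabpa (1.33 ± 0.35). With the offset 4 of them rose (Esrrg, Ppara, Ppargc1b and Gabpa), and Yy1 fell. Ppara, Pprc1 and Gabpa lost their calls without 1 of the rIL-17A libraries. Their size hung on single libraries too: Esrrg had a log2 change of 4.74 without PBS replicate 1 and 2.25 without PBS replicate 3, and Ppara 3.44 without PBS replicate 3, 1.76 without PBS replicate 1 and 1.78 without rIL-17A replicate 3. Fibre markers held 21.9 and 19.6% of counts with rIL-17A and 19.6 and 20.9% with PBS, which overlapped, and the members' sum divided by theirs was 0.222 and 0.242 with rIL-17A and 0.339 and 0.317 with PBS. Of 8 macrophage markers 5 fell, with a summed level of 573 and 705 CPM with rIL-17A and 1973 and 1442 CPM with PBS. Of 7 satellite cell markers 3 fell, with 186 and 242 CPM with rIL-17A and 342 and 292 CPM with PBS. Of 5 endothelial markers 3 rose, with 319 and 295 CPM with rIL-17A and 172 and 154 CPM with PBS. The part of these cells in the members' change was not tested.

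In satellite cells on day 1, 77 members passed the filter, and the 4 that did not were Cox4i2 and the 3 muscle isoforms of complex IV. No member differed between DTR and WT cells in edgeR, where 0% of all genes tested did, 3 members (3.9%, against 5.95% of all genes tested) had an unadjusted p under 0.05, and DESeq2 called none, nor did edgeR when any 1 library was left out. The median log2 change was −0.15, with 58 members below 0, and every DTR library lay below every WT library in CPM for 20 of 77 and above for 0, against 6.93% and 6.35% of all genes tested. Atp5g2 had 31.1, 26.3 and 31.4 CPM in DTR and 38.2, 36.9 and 39.8 CPM in WT libraries (log2 change −0.38 ± 0.17, adjusted p = 0.818), and Cox8a had 324, 318 and 325 CPM in DTR and 366, 357 and 482 CPM in WT libraries (−0.32 ± 0.14). WT replicate 3 stood apart in the subunits encoded in mitochondrial DNA, which held 0.796, 0.826 and 0.728% of counts in DTR libraries and 0.786, 0.854 and 0.256% in WT libraries. Fibroblast markers summed to 5830.0, 7970.0 and 8162 CPM in DTR and 5879, 4936 and 6270.0 CPM in WT libraries. In DTR replicate 1, which carried fibre markers, Cox6a2 had 13.7 CPM, against at most 1.65 CPM in the other 5 libraries.

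Vγ6 cells of injured muscle were compared with those of colon, so that tissue and injury cannot be told apart. Of 77 tested members 11 were higher and 2 lower in muscle cells, where 12.3% of all genes tested were higher and 12.2% lower, and the median log2 change was 0.12. Complex I, which holds 37 of the 81 members, supplied 7 of the 11. Ndufs5, a membrane-arm subunit, had 25.8, 29.4 and 20.8 CPM in muscle cells and 11.3, 11.8 and 18.6 CPM in cells of colon (log2 change 0.83 ± 0.26, adjusted p = 0.0272), and Ndufa8, an accessory subunit facing the intermembrane space, had 73.4, 98.0 and 87.7 CPM in muscle cells and 49.2, 56.9 and 62.6 CPM in colon (log2 change 0.59 ± 0.15, adjusted p = 0.00899). Others were Ndufs4, Ndufb7, Ndufs3 and Ndufb11, with log2 changes of 0.31 to 0.44. Sdhb (182, 198 and 171 CPM in muscle cells and 136, 149.9 and 117 CPM in cells of colon; log2 change 0.42 ± 0.11, adjusted p = 0.0127), Uqcrfs1 (0.30 ± 0.09), Cox4i1 (0.26 ± 0.08) and the ATP synthase subunit gene Atp5md (0.40 ± 0.13) were the remaining 4. Ndufa5 (log2 change −0.40 ± 0.13, adjusted p = 0.0378) and Cox7c (log2 change −0.42 ± 0.13, adjusted p = 0.0285) were lower. Ndufa5 passed in none of the 6 fits that leave out 1 library (adjusted p 0.0546 to 0.104) and Cox7c in 2 (0.0456 to 0.105). Of the higher members, Ndufa8 passed in 5 of these 6 fits, Sdhb and Ndufs4 in 4 and Cox4i1 in 3. Ndufs5 passed in 2, and Uqcrfs1, Atp5md and Ndufb11 in 1 each.

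The counts in Vγ6 cells hang on single libraries: 1 to 8 members were higher when 1 library was left out, namely 1 without muscle replicate 2, 4 without colon replicate 1 or 3, 5 without colon replicate 2 or muscle replicate 1, and 8 without muscle replicate 3. Lower were 0 to 2, with 0 without colon replicate 1 or 3 or muscle replicate 2 or 3 and 1 without colon replicate 2. With the offset 18 were higher and 0 lower. The 3 fibre-type isoforms were at 0 to 3.39 CPM in each of these libraries. Of the subunits encoded in mitochondrial DNA, 7 of 11 tested were lower in muscle cells and 0 higher (median −0.755). They held 0.888, 0.766 and 0.677% of counts in muscle cells and 1.39, 1.23 and 1.24% in colon cells, and the nuclear members' sum divided by theirs was 1.42, 1.63 and 1.76 in muscle cells and 0.791, 0.906 and 0.934 in colon cells. The libraries of the 2 tissues did not overlap in either value. Of 43 tested assembly factors 1 was higher and 3 lower, and of 18 citric acid cycle genes 1 was higher and 1 lower. Nrf1 was the 1 nuclear regulator of 11 tested that was higher (log2 change 0.36 ± 0.12, adjusted p = 0.0412), a call kept in 1 of the 6 fits that leave out 1 library (without colon replicate 1; adjusted p 0.0229 to 0.151 over the 6) and lost without the filter and with the replicate block.

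Counting bears on some single values. Genes on the opposite strand overlap many members. The strand setting of the counts is not given in the sources used here, so that reads of such pairs cannot be told apart. Among those whose partner held the most counts was Ndufs1, with 76552 counts over all libraries against 123153 for Eef1b2, and the values of Ndufs1 are uncertain for that reason. Ndufs6 had 28412 counts against 13557 for Mrpl36. The regulator Gabpa, with 4924 counts, overlaps Atp5j, with 128202. The values of Ndufs6 and Gabpa carry the same uncertainty. Atp5l had 3569 counts in all libraries, and 304 counts lay in 2 pseudogene rows of that name.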

How the data were processed

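Gene counts of 39 mouse libraries were used as the authors deposited them: whole, unnormalized counts of reads per gene symbol. Per the submitters' processing notes, STAR 2.7.3a, featureCounts and Subread 2.0.0 were used with the mm10 build. The annotation, library kit, strand setting and treatment of PCR copies were not given in the sources used here, and errors cover only the spread between libraries. Every library was a separate column named for its sample.

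The 81 genes were found by symbol, and they and all gene lists were chosen with earlier results of these data known. CPM are counts scaled to 1000000 of a library's total. Log2 changes, standard errors and p-values came from edgeR 4.0.16 in R 4.3.3 (quasi-likelihood F-test, TMM scaling, filterByExpr at a count of 10 and a total of 15), adjusted by Benjamini-Hochberg over all genes tested, with 0.05 as the threshold. The 23 libraries of the time course shared 1 fit, and rIL-17A, satellite cells and Vγ6 cells were fitted apart. Every adjusted p is from these fits unless another tool is named. The script recovered known changes in simulated counts. These held no trend over length or GC content and no broad shift of genes, so they do not test the scaling or the offset. Alternatives were DESeq2 1.42.0, its size factors in edgeR, column totals alone, no filter, the replicate number as a block, a length and GC offset, and leaving out each library. Lengths, GC content and positions came from GENCODE M21, which held a single position for all but 3 members (Atp5md, Atp5o and Atp5pb), and these 3 had no offset. Named genes were drawn from the 3 with the smallest p in each complex, the isoform pairs, Cycs and the nuclear regulators, and further members were named after their values were seen. Of the members, 1 enters the counts but is not reported here by itself. No 2 libraries agreed within sampling noise (chi-square per degree of freedom of at least 3.43). Tables and plots used Python 3.11.15 with pandas 2.3.3, numpy 2.4.6, scipy 1.17.1 and matplotlib 3.10.9.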

Additional observations from a re-analysis of the deposited data

How the results depend on the processing

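From day 3 to day 7 the same 77 members rose under every alternative run in DTR and in WT muscle, with 77 to 78 called in WT muscle, and no satellite cell call appeared. The length and GC offset moved the most counts. With it 59 members fell from day 1 to 3 in DTR and 47 in WT muscle, 20 fell and 1 rose from day 7 to 14 in DTR and 9 fell and 3 rose in WT muscle, and 2 fell from day 3 to 7 in WT muscle. It left 17 lower and 2 higher with rIL-17A, 18 higher and 0 lower in Vγ6 cells of muscle, and 0 higher in DTR muscle at day 7. With column totals alone 16 members fell from day 1 to 3 in DTR muscle, 12 fell and 6 rose in WT muscle, 2 fell from day 3 to 7 in either genotype, 1 rose from day 7 to 14 in WT muscle, 1 passed the interaction test and 1 was lower in Vγ6 cells. DESeq2's size factors in edgeR gave 42 lower from day 1 to 3 in DTR muscle. DESeq2 itself gave 50 there, 1 higher from day 7 to 14 in WT muscle, 1 in the interaction test and 2 higher in DTR muscle at day 7. Without the filter 1 passed the interaction test, and 4 were higher and 0 lower in Vγ6 cells. Why these counts moved was not tested.

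Same-numbered libraries correlated at most at 0.284 in their deviations from the group means, and several pairs were below 0.1. With so few libraries in a group this check cannot exclude that replicate numbers pair the samples. With the replicate number as a block 44 members fell from day 1 to 3 in DTR muscle, 0 were higher in DTR muscle at day 7 and 1 was lower in Vγ6 cells, and no other count of members moved by over 1.5 times.

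Leaving out 1 library gave 4 to 60 lower from day 1 to 3 in DTR muscle and 9 to 43 in WT muscle, 1 to 2 lower from day 3 to 7 and 29 to 54 lower from day 7 to 14 in WT muscle, and 0 to 1 in the interaction test. It gave 0 to 2 higher in DTR muscle at day 7, 23 to 58 lower with rIL-17A, and 1 to 8 higher and 0 to 2 lower in Vγ6 cells. Where this left 1 library in a group, that library was taken to vary like the other groups of its fit. With the offset, direction turned for 26 members with rIL-17A, 26 in DTR against WT muscle at day 7, and 24 in WT and 16 in DTR muscle from day 7 to 14. Of the genes whose log2 change with rIL-17A is given, those that turned were Cox6a2 (0.064), Cox7a2 (0.17) and Atp5a1 (−0.016) with the offset, and, without 1 library, Atp5a1 (−0.13 to 0.22; below 0 without PBS or rIL-17A replicate 1) and Cox4i1 (−0.088 to 0.35; below 0 without rIL-17A replicate 1). In WT muscle from day 3 to 7, Atp5g2 (−0.19) and Cox4i2 (−0.79) turned with column totals alone, and Cox4i2 without the filter (−0.16), with the offset (−0.30) and without 1 library (−0.24 to 0.42). From day 7 to 14 Cox6a2 turned with the offset (0.38), and Sdha ran from −0.046 to 0.25 without 1 library, below 0 without WT day 7 replicate 3 or WT day 14 replicate 2.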
